A study of Mus musculus with 6 samples.

Results

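The 10 genes that mark pericytes followed here in the retina of mouse pups with and without endomucin, a glycoprotein of the endothelial surface, were Pdgfrb, Rgs5, Cspg4, Kcnj8, Abcc9, Notch3, Anpep, Higd1b, Vtn and Tbx18. They were chosen by symbol, as surface, channel and signalling genes of pericytes. All 10 of the 10 were found among the 28627 genes of the table, and 9 passed the filter on low counts. The pups were 15 days old and had gone through oxygen-induced retinopathy, a model in which pups breathe high oxygen until capillaries regress and then return to room air, where hypoxia drives vessels to grow again. There were 3 libraries of Emcn+/+ pups and 3 of Emcn-/- littermates, and no group without the oxygen treatment was analysed here. The labels name neither strain nor sex, nor how the Emcn allele was made, nor whether retinas were pooled.

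Pericytes are mural cells that sit on the capillary wall inside the basement membrane shared with the endothelium. Sprouting endothelial cells secrete platelet-derived growth factor B, and its receptor on pericytes, encoded by Pdgfrb, recruits them along the new vessel. Notch3 receives Notch ligands from neighbouring cells and maintains the mural fate. The retina is known for a dense pericyte cover, and its loss is an early sign of diabetic retinopathy. In whole retina, fewer pericytes and less of a transcript per pericyte cannot be told apart.

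Per library, 14865868 to 17087621 reads were counted in genes. Values are given as normalised reads, which are read counts divided by 1 size factor per library, so that 1 normalised read is close to 1 read. Emcn, the targeted gene, stood at 80.6 to 100.5 normalised reads in Emcn+/+ and at 1.04 to 4.62 in Emcn-/- libraries, as the labels say. Gngt1, a transducin subunit of rods, stood at 17211 to 21990 normalised reads, a marker of retina present in every library. Emcn+/+ replicate 3 had 17641 reads of Xist, a transcript of female cells, against 1 to 5 in the other 5 libraries. Ddx3y, a gene of the Y chromosome, had 0 reads in Emcn+/+ replicate 3 and 1143 to 1393 in the other 5. By these genes Emcn+/+ replicate 3 was female and the other libraries, all of Emcn-/- included, were male. Sex was thus not balanced between the genotypes, and no fit held it as a term. Emcn-/- replicate 2 stood apart in its vascular genes, as described below with values. The labels do not say that each library is a separate animal, so the p-values reflect only how far these 6 samples scatter, which may be technical.

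Pericyte genes did not pass the test between genotypes. With limma, 0 of the 9 tested members had an adjusted p under 0.05, 0 had an unadjusted p under 0.05, and 0 had genotypes without overlap. Over all 16681 tested genes these shares were 0.00599% (Emcn, the 1 gene called), 8.14% and 14.4% (6.94% lower and 7.48% higher in Emcn-/-). With edgeR and with DESeq2 on recovered reads the counts were also 0 called and 0 at an unadjusted p under 0.05. Over all tested genes edgeR called 0.00599%. DESeq2 called 0.895% of the 8264 genes to which it gave an adjusted p. Only 3 of the 9 members had a DESeq2 adjusted p, so the rest could not be called by it. The members' log2 fold changes of Emcn-/- against Emcn+/+ ran from -0.66 to 0.15, with 6 negative and 3 positive. Their median was -0.13, beside 0.01 over all tested genes. That median depended on 1 library, since it was 0.08 without Emcn-/- replicate 2.

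Kcnj8 and Abcc9 encode the pore and the sulfonylurea receptor subunit of the vascular ATP-sensitive potassium channel, and they are neighbours on chromosome 6 of GRCm38. Kcnj8 lies at 142564837 to 142571614 and Abcc9 at 142587862 to 142702315, both on the minus strand with 16.2 kb between them. The bases before the start of these genes are shown with those of Rgs5 and Notch3, because Kcnj8 and Abcc9 kept the narrowest ratio of any pair of members, the ratio of Rgs5 to Abcc9 is described below, and Notch3 lay closest to the members' common profile. Capitals mark matches to the core TGGGAA, to which the Notch effector RBPJ binds, and to the GC box GGGCGG, each searched on both strands. The sequences are from RefSeq (GRCm38.p6), 5′ to 3′ on the gene's strand, and that of Abcc9 stops where the longer GENCODE gene begins.
Kcnj8 (chr6:142571615-142571864, minus strand): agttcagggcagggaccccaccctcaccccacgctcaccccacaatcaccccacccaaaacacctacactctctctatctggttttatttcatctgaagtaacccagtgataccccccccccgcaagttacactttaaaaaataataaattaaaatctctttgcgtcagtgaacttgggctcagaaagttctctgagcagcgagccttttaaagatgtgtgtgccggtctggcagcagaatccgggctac
Abcc9 (chr6:142702316-142702524, minus strand): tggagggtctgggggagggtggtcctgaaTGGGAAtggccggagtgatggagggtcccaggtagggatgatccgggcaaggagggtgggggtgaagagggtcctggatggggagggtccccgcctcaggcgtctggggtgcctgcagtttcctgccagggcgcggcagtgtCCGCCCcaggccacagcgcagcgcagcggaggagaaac
Rgs5 (chr1:169655251-169655500, plus strand): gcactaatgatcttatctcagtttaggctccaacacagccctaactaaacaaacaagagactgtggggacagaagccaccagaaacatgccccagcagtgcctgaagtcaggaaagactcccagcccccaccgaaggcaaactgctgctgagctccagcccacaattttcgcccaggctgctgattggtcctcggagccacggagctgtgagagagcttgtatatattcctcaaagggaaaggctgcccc
Notch3 (chr17:32166891-32167140, minus strand): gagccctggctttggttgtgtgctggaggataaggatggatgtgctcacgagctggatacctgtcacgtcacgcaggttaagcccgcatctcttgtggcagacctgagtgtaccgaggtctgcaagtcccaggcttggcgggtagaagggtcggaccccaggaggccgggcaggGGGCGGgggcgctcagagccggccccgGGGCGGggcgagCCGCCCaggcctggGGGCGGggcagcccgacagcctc
Of the 8 members with an entry, 3 held TGGGAA within 250 bases before the start (Abcc9, Vtn and Tbx18) and 4 held GGGCGG (Cspg4, Abcc9, Notch3 and Anpep). For Anpep all 250 of these bases, with its matches, lie inside the longer GENCODE gene, as do 71 of Cspg4, 41 of Abcc9 and 29 of Vtn, where no match lies. Among all 32851 promoters of the table these shares were 21.6% and 32.7%. The CArG box and the MEF2 site, A- and T-rich motifs of muscle genes that can overlap each other, had 0 matches in the 8 members and were present in 1.47% and 2.92% of all promoters. The upstream bases of Kcnj8 and Rgs5 held none of the 4 motifs. A match is a run of letters and not a site shown to be bound.

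Pdgfrb (chromosome 18, 61045150 to 61085061, plus strand), the receptor tyrosine kinase through which pericytes are recruited, was nearly level. It stood at 378, 348 and 337 normalised reads in Emcn+/+ replicates 1 to 3 and at 366, 277 and 399 in Emcn-/- replicates 1 to 3. The lowest and the highest value both belonged to Emcn-/- libraries, so the groups overlapped. Means were 354 ± 20.8 and 347 ± 63.2 (SD, n = 3 each), the log2 fold change was -0.04 ± 0.13 (SE, on log2(value + 1) as all log2 fold changes here), and the limma adjusted p was 0.948. The 95% interval of the difference, -0.35 to 0.26, leaves room for changes between 0.786-fold and 1.20-fold.

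The ligand of this receptor, Pdgfb, shared the low value in Emcn-/- replicate 2. It stood at 172, 206 and 214 normalised reads in Emcn+/+ and 214, 155 and 202 in Emcn-/-, and within Emcn+/+ it ran opposite to Pdgfrb (log2 fold change -0.06 ± 0.15 SE, limma adjusted p = 0.934). Of the 5 genes of the family besides Pdgfrb, Pdgfb included, 0 passed the limma test and 0 had an unadjusted p under 0.05, and their log2 fold changes ran from -0.23 to 0.18. The lowest was Pdgfra, the receptor of other mesenchymal and glial cells (541 ± 42.9 and 467 ± 93.3 normalised reads, SD, n = 3).

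Among 14 further signals of pericyte recruitment, 0 passed the limma test and 2 had an unadjusted p under 0.05 (1 in each direction), with 5 positive and 9 negative values and a median of -0.03. Tek, the endothelial receptor of angiopoietins, had 207, 222 and 178 normalised reads in Emcn+/+ and 215, 67.4 and 177 in Emcn-/-. Only Emcn-/- replicate 2 was far below the others (log2 fold change -0.56 ± 0.37 SE, limma adjusted p = 0.709). Angpt1, the angiopoietin that mural cells supply to Tek, was low throughout at 19.5 to 31.5 normalised reads (-0.20 ± 0.26). Angpt2, its antagonist, had the smallest p of this list, at 141, 162 and 268 normalised reads in Emcn+/+ and 274, 271 and 278 in Emcn-/- (0.58 ± 0.21, limma adjusted p = 0.534).

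Notch3 (chromosome 17, 32120820 to 32166852, minus strand), the Notch receptor of mural cells, was spread widely among Emcn-/- libraries. Its values were 221, 210.4 and 189 normalised reads in Emcn+/+ and 203, 123 and 265 in Emcn-/-. The Emcn+/+ values lay inside the range of the Emcn-/- values, from Emcn-/- replicate 2 at the bottom to replicate 3 at the top. Means were 207 ± 16.3 and 197 ± 71.1 (SD, n = 3), with a log2 fold change of -0.13 ± 0.24 (SE) and a limma adjusted p of 0.905. The value was 0.17 without Emcn-/- replicate 2 and -0.38 without Emcn-/- replicate 3.

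Heyl, a Notch target gene expressed in mural cells, was lower in all 3 Emcn-/- libraries without passing the test. It had 132, 97.3 and 97.2 normalised reads in Emcn+/+ and 83.7, 72.6 and 80.4 in Emcn-/-, so the genotypes did not overlap (log2 fold change -0.45 ± 0.17 SE, limma adjusted p = 0.561). Such separation in the lower direction was found for 6.94% of all tested genes. Jag1, a ligand of Notch3, stood at 1874 ± 94.2 and 1799 ± 135 (SD, n = 3; -0.06 ± 0.07). Notch1, the receptor that endothelial cells also use, had the smallest p of the Notch list (-0.50 ± 0.14, limma adjusted p = 0.473). Of the 11 Notch ligands, receptors and targets besides Notch3, 0 passed and 2 had an unadjusted p under 0.05, both lower, with 4 positive and 7 negative values and a median of -0.04.

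Abcc9 had the smallest p of the members, and it did not pass. It stood at 256, 209 and 245 normalised reads in Emcn+/+ and at 198, 124 and 238 in Emcn-/-. The upper end of the Emcn-/- values reached into the Emcn+/+ range through replicate 3 alone. Means were 236 ± 24.8 and 187 ± 57.3 (SD, n = 3), the log2 fold change was -0.38 ± 0.22 (SE) and the limma adjusted p was 0.680. Without Emcn-/- replicate 2 the value was -0.12, and over all other settings it lay between -0.58 and -0.33.

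Kcnj8 kept a narrow ratio to Abcc9. Its values were 95.4, 76.9 and 109 normalised reads in Emcn+/+ and 78.9, 55.0 and 99.8 in Emcn-/- (log2 fold change -0.29 ± 0.24 SE, limma adjusted p = 0.761). Emcn-/- replicate 2 was the lowest library for this gene too, and without it the value was -0.066. Without Emcn-/- replicate 3 it was -0.49 and without Emcn+/+ replicate 3 -0.18. The ratio of Kcnj8 to Abcc9 stayed between 0.369 and 0.446 in the 6 libraries, while the genes alone spanned 1.99-fold and 2.06-fold. This 1.21-fold spread was the narrowest of the 36 pairs of tested members. The ratio of Pdgfrb to Rgs5, which lie on different chromosomes, spread almost as little, 1.23-fold. Kcnj11 and Abcc8, which encode the corresponding channel subunits of neurons and endocrine cells, stood at 137 ± 22.9 and 224 ± 34.8 normalised reads in Emcn+/+ (SD, n = 3), with log2 fold changes of -0.03 ± 0.19 and -0.21 ± 0.16. Neither of them was lowest in Emcn-/- replicate 2; both were lowest in Emcn-/- replicate 3.

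Rgs5, a regulator of G protein signalling that is abundant in pericytes, had 3615, 3519 and 3409 normalised reads in Emcn+/+ and 4297, 2641 and 4512 in Emcn-/-. The 3 Emcn+/+ libraries were close together, and the Emcn-/- libraries lay on either side of them, 2 above and 1 below. Means were 3515 ± 103 and 3817 ± 1024 (SD, n = 3), and the log2 fold change of 0.08 ± 0.17 (SE) had a limma adjusted p of 0.921. Per kb of exonic length, Rgs5 had 806 normalised reads on average, against 64.0 for Pdgfrb, 54.1 for Higd1b, 33.7 for Kcnj8, 25.3 for Abcc9 and 25.0 for Notch3. Rgs5 lies on chromosome 1 (169655501 to 169695813, plus strand).

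Cspg4 (chromosome 9, 56865033 to 56899870, plus strand) encodes the NG2 proteoglycan of the pericyte surface. It had 81.9, 106 and 89.5 normalised reads in Emcn+/+ and 93.5, 64.3 and 89.6 in Emcn-/-, where only replicate 2 was below the Emcn+/+ range (log2 fold change -0.17 ± 0.19 SE, limma adjusted p = 0.827). Leaving out 1 library moved the Cspg4 value between -0.27 (without Emcn-/- replicate 1) and -0.005 (without Emcn-/- replicate 2). Anpep (chromosome 7, 79821803 to 79861059, minus strand), the surface aminopeptidase N, was not lowest in that library, with 37.3, 34.3 and 19.7 in Emcn+/+ and 12.7, 13.5 and 35.1 in Emcn-/-. Replicate 3 of each genotype lay among the values of the other genotype. The log2 fold change of -0.66 ± 0.43 (SE) was the lowest of the members, with a limma adjusted p of 0.709, and it rested on 13 to 38 recovered reads per library. It was -1.11 without Emcn-/- replicate 3 and -0.41 without Emcn-/- replicate 1.

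Higd1b (chromosome 11, 102835849 to 102838040, plus strand), a small protein of a family of mitochondrial hypoxia-response genes, was level in 5 libraries and high in 1. It had 39.4, 41.7 and 47.0 normalised reads in Emcn+/+ and 39.9, 39.4 and 67.5 in Emcn-/- (log2 fold change 0.15 ± 0.25 SE, limma adjusted p = 0.896). Without Emcn-/- replicate 3 its value was -0.10. Tbx18 (chromosome 9, 87702800 to 87731260, minus strand), a transcription factor of mural cells, was the member that did not pass the filter. It was counted by 3, 5 and 5 reads in Emcn+/+ and by 4, 2 and 12 in Emcn-/-, so a difference was not detectable at this depth.

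Vtn (chromosome 11, 78499091 to 78502324, plus strand) encodes vitronectin, an adhesion protein of matrix and plasma. It marks brain pericytes, and photoreceptors of the retina are also known to express it. It had 8901, 9501 and 10205 normalised reads in Emcn+/+ and 9742, 10130.3 and 10450.5 in Emcn-/-, the narrowest spread of the members (log2 fold change 0.09 ± 0.06 SE, limma adjusted p = 0.737). At 4838 normalised reads per kb it was far above the other members, and Emcn-/- replicate 2 was not low. The 14 rod markers, all of them positive with a median of 0.10, 0 passing and 1 at an unadjusted p under 0.05, had mean log2 levels of -0.13, -0.04 and 0.02 in Emcn+/+ and 0.02, 0.11 and 0.01 in Emcn-/-, relative to the mean of the 6 libraries; their part in the Vtn values was not tested.

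**Figure D1:**
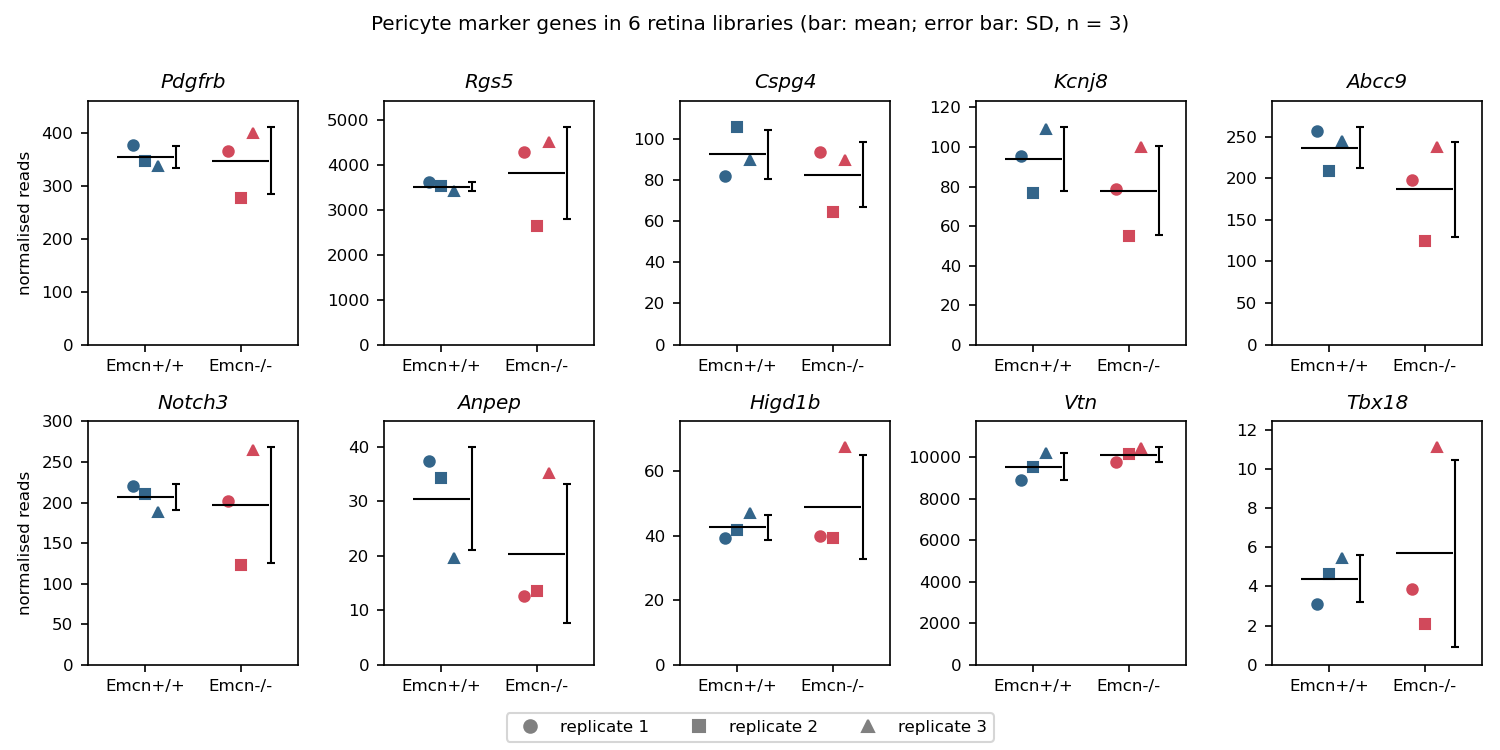
Normalised reads of the 10 pericyte marker genes in each library, on axes starting at 0, with 3 Emcn+/+ (blue) and 3 Emcn-/- (red) libraries, symbols for the replicate number, the mean as a bar and the SD as an error bar. The genotypes overlap for each gene, and Emcn-/- replicate 2 (red square) is low for Pdgfrb, Rgs5, Cspg4, Kcnj8, Abcc9 and Notch3 but not for Vtn.

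**Figure D2:**
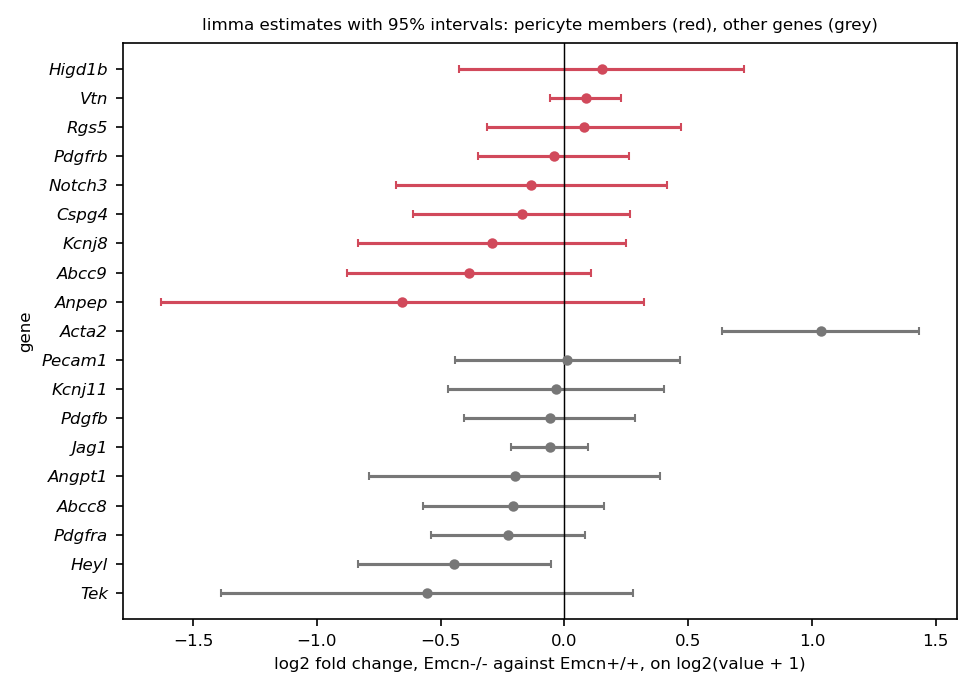
Log2 fold change of Emcn-/- against Emcn+/+ with its 95% interval from limma, on the log2(value + 1) scale, for the 9 tested pericyte genes (red) and 10 related genes (grey). All 9 red intervals include 0, and the adjusted p of each gene shown, Acta2 and Heyl included, is above 0.05.

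Most of the pericyte genes had low values in 1 library, while the order of the other libraries differed between genes. Emcn-/- replicate 2 was the lowest library for 6 of the 9 tested members, while it was lowest for 15.5% of all tested genes. Emcn-/- replicate 3 was the highest for 5 of 9, against 17.9% of all tested genes, and the other 4 were highest in an Emcn+/+ library. Anpep was lowest in Emcn-/- replicate 1, and Higd1b and Vtn in Emcn+/+ replicate 1. In Emcn-/- replicate 2 the levels of these 6 genes, from Abcc9 to Pdgfrb, were 52.6% to 78.2% of the Emcn+/+ mean. The coefficient of variation was larger among Emcn-/- than among Emcn+/+ libraries for 8 of 9 members, the exception being Vtn, and for 40.5% of all tested genes. Its median over the members was 9.06% in Emcn+/+ and 28.8% in Emcn-/-, while over all tested genes it was lower in Emcn-/- (8.15%) than in Emcn+/+.

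Endothelial genes were low in the same library. Of 18 endothelial markers, 17 were lowest in Emcn-/- replicate 2, 7 were highest in Emcn-/- replicate 3, and 16 had the larger coefficient of variation in Emcn-/-. Their summed level was 9217 to 9785 normalised reads in Emcn+/+ and 9283, 6301 and 9628 in Emcn-/- replicates 1 to 3; 0 markers passed the limma test, 2 had an unadjusted p under 0.05 (both lower), 13 were negative and 5 positive, and no marker was at 0 in all libraries. Pecam1, an endothelial adhesion molecule, had 396, 399 and 579 in Emcn+/+ and 514, 338 and 541 in Emcn-/- (log2 fold change 0.01 ± 0.20 SE, limma adjusted p = 0.988). On the log2(value + 1) scale, the mean over 8 pericyte genes (the tested members without Vtn) lay at 0.15, 0.08 and 0.04 in Emcn+/+ and at -0.08, -0.52 and 0.33 in Emcn-/-, each relative to the mean of the 6 libraries. The endothelial means lay at 0.00, 0.08 and 0.10 in Emcn+/+ and at 0.12, -0.57 and 0.26 in Emcn-/-. The lowest and the highest library were the same for both means, while the 4 libraries between them ran in opposite orders. In these 4 libraries Anpep fell in the order of the pericyte mean (37.3, 34.3 and 19.7 normalised reads in Emcn+/+, 12.7 in Emcn-/- replicate 1). Anpep counts as much as any other gene in that mean but rested on 13 to 38 recovered reads per library. The order without Anpep was not examined, so the opposite orders are not read as a result. The range over libraries was 0.84 for pericyte and 0.83 for endothelial genes.

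The pericyte mean minus the endothelial mean, a measure of pericyte transcripts relative to endothelial ones, was described by its values, without a test or an interval. It was -0.60, -0.74 and -0.81 in Emcn+/+ and -0.95, -0.69 and -0.68 in Emcn-/- on the log2 scale. The genotypes overlapped, with means of -0.71 ± 0.11 and -0.77 ± 0.15 (SD, n = 3), a difference of -0.06. Emcn-/- replicate 2, which was low on each list, was within the Emcn+/+ range on this measure, and the lowest library was Emcn-/- replicate 1.

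**Figure D3:**
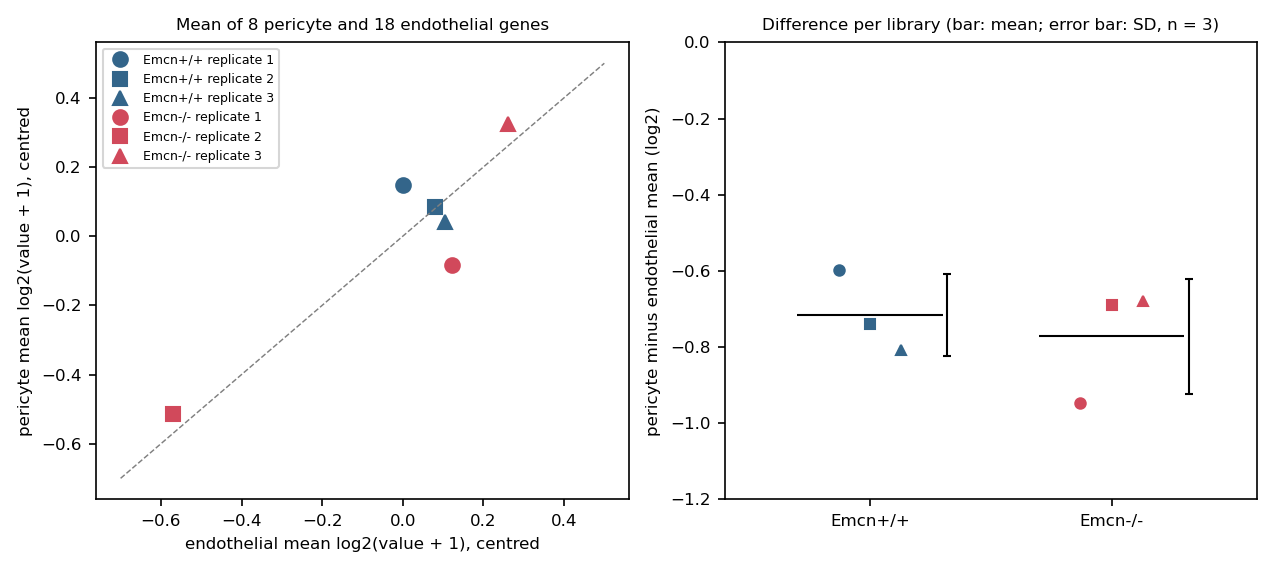
Left, the mean log2(value + 1) of 8 pericyte genes against that of 18 endothelial genes in each library, both centred on the 6 libraries, with a dashed line of equal values; right, their difference per library with mean and SD (n = 3). Emcn-/- replicate 2 is lowest and Emcn-/- replicate 3 highest on both axes, and the difference overlaps between genotypes (-0.71 and -0.77 on average).

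Among 20 further pericyte and mural genes, 8 were lowest in Emcn-/- replicate 2 and 8 were highest in Emcn-/- replicate 3. Their mean log2 levels, relative to the 6 libraries, were also lowest (-0.32) and highest (0.28) there. Of the 20, 11 had positive and 9 negative log2 fold changes, and 0 passed (median 0.06), with 2 at an unadjusted p under 0.05. The one with the smallest p was Lamc3, a laminin chain, at 62.2, 64.0 and 47.0 normalised reads in Emcn+/+ and 33.1, 29.0 and 34.2 in Emcn-/- (-0.82 ± 0.21 SE, limma adjusted p = 0.424). Contractile genes of smooth muscle were lowest in Emcn-/- replicate 2 for 1 of 9 tested genes and highest in Emcn-/- replicate 3 for 6 of 9. How the lists differ in these counts was not tested. Of these 9, 8 were positive, 0 passed, 2 had an unadjusted p under 0.05, and the median was 0.21. With edgeR and with DESeq2, 0 genes were called in the pericyte, mural, PDGF, recruitment, Notch, channel, endothelial, fibroblast, pigment epithelium and rod lists. DESeq2 gave no adjusted p for many of these genes, Acta2 and the whole channel list included, so it could not call them. Outside these lists, DESeq2 called 1 gene of a Muller glia list, Apoe (DESeq2 adjusted p = 0.00128). Acta2, smooth muscle actin, stood at 103, 89.0 and 128 in Emcn+/+ and 181, 224 and 251 in Emcn-/-, without overlap (1.04 ± 0.18 SE, limma adjusted p = 0.340). The DESeq2 unadjusted p of Acta2 was 3.1e-07. DESeq2 gave Emcn, the targeted gene, no adjusted p either.

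Markers of tissue next to the retina also differed between the libraries. Of 10 fibroblast and scleral markers, 8 were tested, 0 passed and 1 had an unadjusted p under 0.05; their sum was 1743 to 2417 normalised reads in Emcn+/+ and 2387, 2079 and 3255 in Emcn-/-, highest in Emcn-/- replicate 3. Of the 11 pigment epithelium markers, 10 were tested, 10 were positive, 0 passed and 7 had an unadjusted p under 0.05. The share of all tested genes with an unadjusted p under 0.05 was 8.14%. These markers summed to 9863 to 13946 in Emcn+/+ and 15029, 18362 and 17283 in Emcn-/-, so each Emcn-/- sum was above the Emcn+/+ range. By mean log2 level, relative to the 6 libraries, the genotypes overlapped. Emcn+/+ replicate 1 (0.13) lay above Emcn-/- replicate 1 (0.04) on this measure. Replicates 2 (-0.93) and 3 (-0.52) of Emcn+/+ lay below both, while replicates 2 (0.45) and 3 (0.83) of Emcn-/- lay above. No marker of either list was at 0 in all libraries. The part of either list in the values of the pericyte genes, those of Emcn-/- replicate 3 included, was not tested.

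Ratios between members, in which a shift common to a library cancels, separated the genotypes in 3 of 36 pairs (8.33%), each of them with Abcc9. Among single tested genes the share without overlap was 14.4%, but the share among ratios of other genes was not computed. The count of pairs is therefore not read as a result about these genes. Rgs5 over Abcc9 was 14.1, 16.9 and 13.9 in Emcn+/+ and 21.7, 21.2 and 19.0 in Emcn-/-, a mean log2 difference of 0.47. This pair had a clear gap between the genotypes. Pdgfrb over Abcc9 was 1.38 to 1.67 in Emcn+/+ and 1.68 to 2.23 in Emcn-/-, and Abcc9 over Higd1b was 5.0 to 6.5 and 3.16 to 4.95, so in these pairs the nearest libraries almost touched. For each of the 3 the exact permutation p was 0.1 (two-sided, n = 3 each), the smallest that 3 against 3 can give, and 0.48 after Benjamini-Hochberg adjustment over the 36 pairs. No ratio could therefore fall under 0.05 by this test, whatever its values, so the test cannot decide whether a ratio differs. The pairs share genes, so they are not independent, and they were examined after seeing the values.

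**Figure D4:**
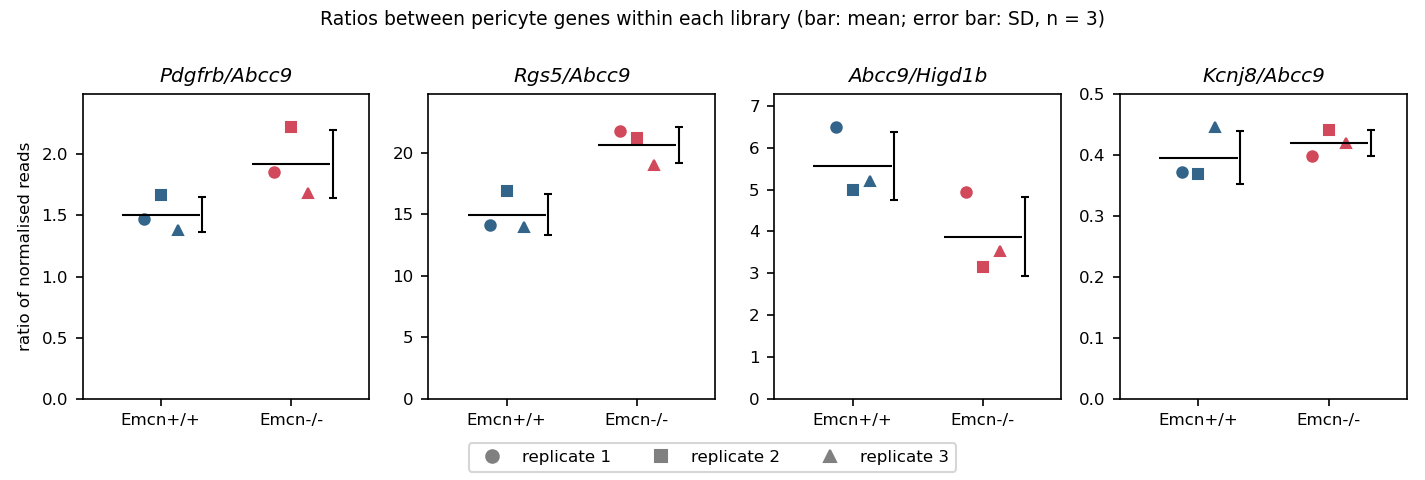
Ratios of normalised reads between pericyte genes within each library, on axes starting at 0, with mean and SD (n = 3), for the 3 pairs whose genotypes do not overlap and for Kcnj8 over Abcc9. Rgs5 over Abcc9 is at 16.9 or below in Emcn+/+ and at 19.0 or above in Emcn-/-, while Kcnj8 over Abcc9 stays between 0.369 and 0.446.

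The profile common to the 8 members without Vtn was closest to Notch3 and Pdgfrb among the members, with Pearson r of 0.986 and 0.951 over the 6 libraries, and least close to Higd1b (0.627). These values describe members that themselves make up the profile. Vtn had -0.08 with it. Among the 11623 other genes with a mean of at least 100 normalised reads, the 4 with the highest r were Noc3l (0.982), the endothelial tight junction gene Cldn5 (0.979), Krt10 (0.975) and Mcm7 (0.975). Cldn5 had 736, 715 and 808 normalised reads in Emcn+/+ and 682, 414 and 917 in Emcn-/-, with the lowest and highest values again in Emcn-/- replicates 2 and 3. The other 3 genes spanned a narrower range; Mcm7, for example, had 242 to 280.0 normalised reads in Emcn-/-. With 6 libraries and many genes ranked, high coefficients occur among unrelated genes.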

How the data were processed

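Poly-A RNA of 6 mouse retina samples was sequenced from 1.3 µg per library, per the labels' protocols. The authors deposited a read signal per gene, with GRCm38 as the build per the submitters' processing notes; the scaling is not stated, no aligner or counter is named in the labels, and the protocol covers libraries with and without strand marks, so reads of overlapping genes cannot be told apart. Dividing by the smallest step of a library turned 100% of its values into whole reads, within 0.001 of a read, which is the form of counts over 1 size factor (0.916 to 1.08). On these recovered reads edgeR called 1 gene.

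Genotypes were compared in R 4.3.3 by limma 3.58.1, its variance trend switched on, using log2(value + 1) and genotype as the only term, over 16681 genes kept by edgeR's filter (minimum count 10), with Benjamini-Hochberg adjustment and a threshold of 0.05. Recovered reads were also tested by edgeR 4.0.16 and by DESeq2 1.42.0. Low genes' changes are understated by the pseudocount. Positions and exonic lengths are from GENCODE M21 (GRCm38). A symbol with several IDs was given to the ID with the highest mean. The limma and edgeR tests, but not DESeq2, were tried first on simulated data with known changes, and the outcome is not reported here. The named genes were all members, 11 genes fixed by name, the member of each list with the smallest p or the highest mean, and the 5 genes of most similar profile, of which 1 is not reported here. Members and lists were chosen with earlier results of these data known; ratios between members and the order of libraries were examined after seeing the values. Titles number the samples in the 140s or 180s, with replicate 3 of each genotype in the 180s. Alternatives covered scaling, filter, pseudocount, model, single libraries, title series and exonic length.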

Additional observations from a re-analysis of the deposited data

How the results depend on the processing

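No member passed under any of the 14 alternative settings. The lowest limma adjusted p of a member was 0.253, for Vtn, and the next was 0.311, for Anpep. Each of these came from the fit without Emcn+/+ replicate 3. DESeq2 gave an adjusted p for 3 of the 9 members. Of 126 member values, 120 kept their direction, and the other 6 turned when 1 library was left out: Pdgfrb then ranged from -0.15 to 0.11, Rgs5 from -0.061 to 0.33, Notch3 from -0.38 to 0.17 and Higd1b from -0.10 to 0.28. The members' median ranged from -0.24 to 0.08 over single libraries left out and from -0.13 to -0.07 elsewhere. The pericyte minus endothelial difference ranged from -0.10 to 0.03. Over all genes, DESeq2 called 74, and leaving out 1 library gave 0 to 147. The highest count came without Emcn+/+ replicate 3, the only library with many Xist reads, and the cause was not tested. With the title-number series as a term, Abcc9 had a limma adjusted p of 0.435; the 180s hold 1 library of each genotype, so no test within them was possible. No paired analysis was run, because no litter was available for each library and the replicate numbers only follow the order of the deposited samples. Depth limits Tbx18 and Anpep.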
